A study of Mus musculus with 4 samples.

Results

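The 10 genes described here carry out class I antigen processing, and they were taken as the rows whose symbol is H2-K1, H2-D1, B2m, Tap1, Tap2, Tapbp, Psmb8, Psmb9, Psmb10 or Erap1. All 10 were found among 18021 genes in the table, and all 10 passed the filter, a mean across libraries of 1 FPKM or more (fragments per kilobase of transcript, scaled to sequencing depth), which left 11041 genes. RNA was measured in mouse bone marrow-derived dendritic cells of strain C57BL/6, cultured for 5 days with GM-CSF and IL4 and then exposed to LPS (lipopolysaccharide, a bacterial product that matures them) at 100 ng/ml for 24 h. These mature cells were transfected with si-NC, taken here as the comparison siRNA, or with si-Lnc-Dpf3, which by its name targets lnc-Dpf3, a long non-coding RNA. They had CCR7L for 12 h or no stimulation (Med in the labels). CCR7L stands for CCL19 and CCL21, the 2 chemokines that bind the receptor CCR7. Every group had therefore received GM-CSF, IL4, LPS and an siRNA, and the 4 groups were each siRNA without and with CCR7L. Each group is 1 library, so a ratio of 2 libraries is given with no p-value and no replicate stands behind it. The labels name 1 siRNA against lnc-Dpf3, and lnc-Dpf3 itself was not analysed here.

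Class I molecules display peptides from inside the cell to CD8 T cells, and dendritic cells use them to start such responses. The proteasome cuts proteins into peptides, the TAP transporter moves the peptides into the endoplasmic reticulum, ERAP1 (also called ERAAP in the mouse) trims them, and tapasin helps load them onto a heavy chain bound to beta-2-microglobulin. In cells exposed to interferon or LPS, the catalytic subunits encoded by Psmb8, Psmb9 and Psmb10 take the places of those encoded by Psmb5, Psmb6 and Psmb7, and the resulting particle is called the immunoproteasome.

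Of the 10 genes, 7 lie on chromosome 17 in the major histocompatibility complex (coordinates from RefSeq, GRCm38.p6). H2-K1 spans chr17:33996012-34000619 and H2-D1 chr17:35263094-35267497. Between them lie Psmb9 (chr17:34182030-34187330), Tap1 (chr17:34187556-34197225), Psmb8 (chr17:34198195-34201454) and Tap2 (chr17:34204479-34216321). Tapbp lies at chr17:33919478-33929290. B2m is on chromosome 2 (122147687 to 122153082), Psmb10 on chromosome 8 (105935728 to 105938392) and Erap1 on chromosome 13 (74639573 to 74693205).

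A promoter window from RefSeq (GRCm38.p6) was matched for 9 of the 10 genes, Tap2 being the other. Psmb9 and Tap1 are transcribed away from each other, and the 225 bases between their start sites (chr17:34187331-34187555, plus strand) are printed because they precede both genes. The 250 bases before Psmb8 (chr17:34197945-34198194, plus strand) are shown as those of the next immunosubunit gene, and capitals mark a match to TTCNNNGAA, the GAS motif that STAT proteins are known to bind.
Psmb9 to Tap1: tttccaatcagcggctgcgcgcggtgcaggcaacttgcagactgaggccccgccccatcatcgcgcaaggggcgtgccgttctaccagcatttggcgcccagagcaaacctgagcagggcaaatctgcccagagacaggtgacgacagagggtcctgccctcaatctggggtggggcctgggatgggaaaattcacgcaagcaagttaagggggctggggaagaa
Psmb8: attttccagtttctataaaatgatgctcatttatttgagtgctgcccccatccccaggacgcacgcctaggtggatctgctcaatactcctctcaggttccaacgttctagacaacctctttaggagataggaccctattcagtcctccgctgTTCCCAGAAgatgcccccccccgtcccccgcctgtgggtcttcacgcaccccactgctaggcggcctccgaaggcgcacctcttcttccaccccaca

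H2-K1 and H2-D1 share a stretch before their start sites, and it is shown because these 2 genes had nearly equal levels throughout. It was cut 30 bases on either side of the marked letters, and the likeness runs on past both ends. For H2-K1 the start site is that of its promoter window (chr17:34000348-34000597, minus strand), which lies within the gene span given above. The stretches are chr17:34000418-34000488 (minus strand) for H2-K1 and chr17:35262893-35262963 (plus strand) for H2-D1, and the stretch for B2m is chr2:122147518-122147600 (plus strand). Capitals mark matches on either strand to the NF-kappaB motif (GGGA and CC with 4 bases between), where 2 matches overlap in each gene. In B2m they also mark a match to the interferon-stimulated response element, ISRE (GAAA and GAAA with 2 bases between). Only these exact letters were searched, so an unmarked stretch can still hold a looser form of a motif.
H2-K1: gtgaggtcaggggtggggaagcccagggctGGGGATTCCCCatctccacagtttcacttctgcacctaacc
H2-D1: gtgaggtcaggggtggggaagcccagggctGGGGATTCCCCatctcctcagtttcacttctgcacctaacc
B2m: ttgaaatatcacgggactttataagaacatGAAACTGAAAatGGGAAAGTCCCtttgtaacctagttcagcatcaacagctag

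The H2-K1 and H2-D1 stretches were identical at 70 of 71 bases, and the whole upstream windows had 170 of 250 identical bases. From the start site, the NF-kappaB matches lie at -111 and -110 in H2-K1 and at -171 and -170 in H2-D1. The 2 windows are therefore offset, and their identity cannot be set against that of the stretches. All 4 motifs were searched on both strands. Over 32851 windows of the same table, each with 250 bases before and 50 after a start site, the NF-kappaB letters were found on either strand in 20.7%, GAS in 8.3% and the ISRE in 3.44%. The cyclic AMP response element TGACGTCA was present in 1.79% of all windows and in 0 of the 9 matched genes. Erap1 also held 1 ISRE match, across the start site of its window, which lies within the gene span as it does for H2-K1. These matches describe letters in the windows and do not show binding.

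The level order was B2m, then H2-D1 and H2-K1, then Psmb8 and Tapbp, then Psmb9, Tap1, Psmb10, Tap2 and Erap1. Psmb8 and Tapbp, and likewise Psmb10 and Tap2, changed places between libraries. FPKM is per length, so these levels can be compared between genes. B2m, the light chain shared by class I molecules, measured 4059.97 FPKM without and 4190.1 FPKM with CCR7L in si-NC cells, whereas si-Lnc-Dpf3 cells had 3318 without and 3626 with it. It ranked between 4 and 8 among all 18021 genes. H2-K1, a classical heavy chain, measured 1630.2, 1581, 1256 and 1419 FPKM in the same order, which is kept below wherever 4 values are given. H2-D1, the other classical heavy chain, measured 1630.2, 1609.6, 1259 and 1424 FPKM. The ratio of H2-K1 to H2-D1 FPKM was 0.982 or more in each library and at most 1.0, so these neighbours in the order are not distinguished. Of the H2-K1 transcript's 50-base words, 8.79% also occur in a transcript of another gene, and of the H2-D1 words 14.3%. Reads can therefore be divided between them and the Q region genes, and their separate levels are uncertain to that extent. The share was 2% or less for the other 8 genes.

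At a depth estimated from low FPKM values, the 10 genes had between 3420 (Psmb10) and 73528 (B2m) estimated reads per library. Counting error at a 95% level came to at most 0.066 on the log2 scale for any ratio given here. These intervals cover counting error only, not the spread between cultures.

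**Figure D1:**
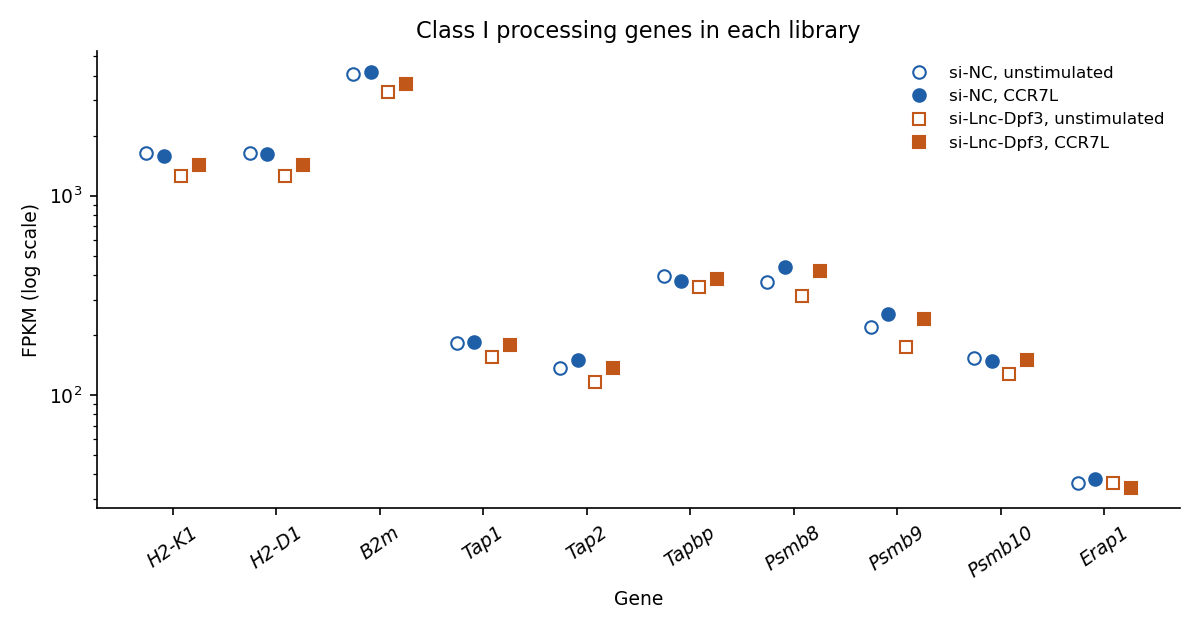
FPKM (log axis) of the 10 class I processing genes in each of the 4 libraries, with 1 point per library. Circles are si-NC and squares si-Lnc-Dpf3, open without and filled with CCR7L, and the open square is the lowest point for 9 of the 10 genes.

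With CCR7L, the immunosubunit genes Psmb8 and Psmb9 were higher under both siRNAs, whereas the heavy chains and B2m stood near their unstimulated level in si-NC cells. Psmb8 encodes the chymotrypsin-like subunit, and its level was 369, 436, 313 and 419 FPKM. Both stimulated libraries lay above both unstimulated ones. Averaged over the siRNAs, the log2 level of Psmb8 rose with CCR7L by 0.33 ± 0.08 (SE) at a limma adjusted p of 0.036. Psmb9 encodes the subunit that replaces that of Psmb6, and it measured 219, 256, 174 and 239.7 FPKM. Again both stimulated libraries were the higher ones, and Psmb9 rose by 0.34 ± 0.08 (limma adjusted p = 0.025). These tests come from an additive model over the 4 libraries, in which the interaction is the sole source of spread for each gene, not replicate cultures. Both calls were lost without the mean-variance trend, where the limma adjusted p was 0.081 for Psmb8 and 0.087 for Psmb9, in a model of stimulation alone (0.30 and 0.34), without the filter (0.44 and 0.45), and in that single-factor model with any 1 of the 4 libraries left out. Over all alternatives run, the limma adjusted p ranged from 9.2e-05 to 0.97 for Psmb8 and from 5.4e-05 to 0.98 for Psmb9.

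Of the 10 genes, 2 rose and 0 fell in the average CCR7L effect, beside 2.93% of 11041 genes that rose and 3.11% that fell. At an unadjusted p under 0.05 limma had 3 of 10 higher (Psmb8, Psmb9 and Tap2) beside 7.64% of all genes. The median estimate over the 10 was 0.09, against -0.02 over all genes. Tap2, which encodes a chain of the peptide transporter, measured 136, 150.35, 116 and 136 FPKM. Its estimate was 0.19 with a 95% interval from 0.04 to 0.33, and it did not pass (limma adjusted p = 0.15). Tap1, the partner chain, measured 182, 185, 156 and 177 FPKM, with an estimate of 0.11 and an interval from -0.05 to 0.26. Psmb10, the remaining immunosubunit, measured 152, 149, 127 and 149 FPKM. Its stimulated values were alike and its unstimulated values were not, and the estimate was 0.10 (interval -0.07 to 0.26). Tapbp encodes tapasin and measured 396, 371, 347 and 380.2 FPKM. It was lower with CCR7L under si-NC and higher with CCR7L under si-Lnc-Dpf3. Erap1 measured 36.2, 37.7, 36.0 and 34.3 FPKM, the narrowest range among the 10. Estimates for H2-K1, H2-D1 and B2m were 0.07, 0.08 and 0.09, with intervals from -0.19 to 0.32, from -0.18 to 0.34 and from -0.26 to 0.44.

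Within single siRNAs the CCR7L ratios differed in size. In si-NC cells the log2 ratios ran from -0.09 (Tapbp) to 0.24 (Psmb8), with a median of 0.04 beside -0.01 over all genes tested. There 6 of 10 were higher, beside 46.1% of all genes and 52.3% of the 811 genes whose mean reaches 100 FPKM, a level that 9 of the 10 reach. No gene of the 10 reached 1.2-fold in either direction there, where 4.43% of all genes passed that fold upwards and 5.96% downwards. In si-Lnc-Dpf3 cells the ratios ran from -0.07 (Erap1) to 0.46 (Psmb9), with a median of 0.18 beside -0.02 over all genes and 0.09 over those at 100 FPKM or more. There 9 of 10 were higher, beside 44.3% of all genes and 73.9% of those at 100 FPKM or more. At least 1.2-fold higher were Psmb8 and Psmb9, 2 of 10, beside 6.51% of all genes and 12.5% of those at 100 FPKM or more. The CCR7L log2 ratio was larger under si-Lnc-Dpf3 than under si-NC for 9 of the 10 genes, as it was for 48.5% of all genes tested. Among the genes at 100 FPKM or more the share was 74.7%. Differences between the CCR7L ratios under the 2 siRNAs ran from -0.13 (Erap1) to 0.26 (Psmb10). No residual spread remains to test them.

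The effect of si-Lnc-Dpf3 was asked separately in unstimulated and stimulated cells. In unstimulated cells all 10 genes were lower with si-Lnc-Dpf3, by log2 ratios between -0.38 (H2-K1) and -0.01 (Erap1), with a median of -0.25. Over all genes tested the median was 0.02, and 45.3% were lower. The unstimulated si-Lnc-Dpf3 library had lower values for abundant genes in general, since the 811 genes at 100 FPKM or more had a median of -0.07 and 66.3% of them were lower. Log2 ratios were -0.37 for H2-D1, -0.33 for Psmb9, -0.29 for B2m, -0.26 for Psmb10 and -0.24 for Psmb8. Tap2, Tap1 and Tapbp stood at -0.23, -0.22 and -0.19. At least 1.2-fold lower were 4 of 10, namely H2-K1, H2-D1, B2m and Psmb9, beside 7.06% of all genes and 14.7% of the genes at 100 FPKM or more. For 9 of the 10 genes the unstimulated si-Lnc-Dpf3 library was the lowest of the 4, beside 23.8% of all genes and 48.2% of those at 100 FPKM or more.

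Under CCR7L the same comparison gave ratios nearer 0 for 9 of the 10 genes, Erap1 being the exception, and the classical chains and B2m stood at the low end. These are the 9 genes whose CCR7L ratio was larger under si-Lnc-Dpf3, and the same 4 values give both counts. A larger CCR7L ratio there was found for 48.5% of all genes and 74.7% of those at 100 FPKM or more. In the siRNA comparison under CCR7L, B2m had a log2 ratio of -0.21, H2-D1 of -0.18 and H2-K1 of -0.16. Tap2 stood at -0.14, Erap1 at -0.13, Psmb9 at -0.09, Tap1 at -0.06 and Psmb8 at -0.06. Psmb10 was level at 0.00 and Tapbp at 0.03. The median was -0.11 beside 0.01 over all genes, and 8 of 10 were lower beside 47.1% of all genes and 44.8% of those at 100 FPKM or more. No gene of the 10 reached 1.2-fold, a fold that 3.77% of all genes passed downwards and 5.24% upwards.

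**Figure D2:**
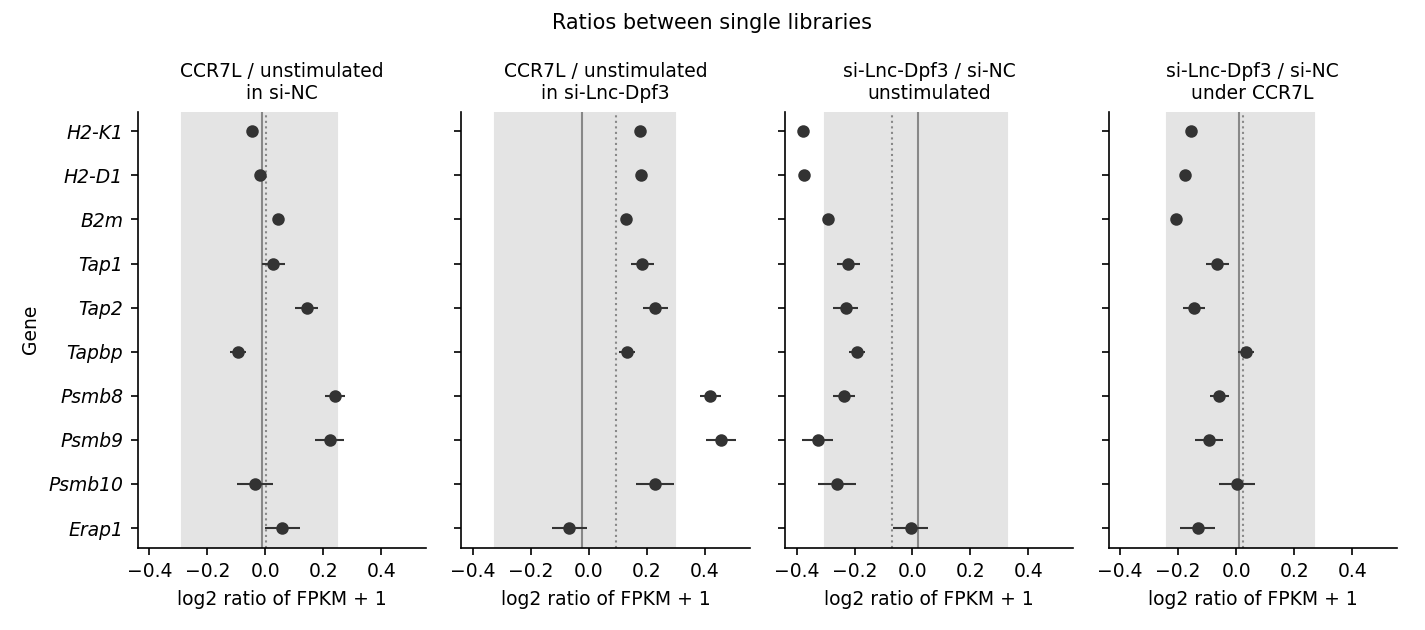
Log2 ratios of FPKM + 1 between single libraries for the 10 genes, in 4 comparisons, with bars for the 95% counting interval. The grey band spans the 5th to 95th percentile of all genes tested, the solid line is their median and the dotted line the median of genes at 100 FPKM or more. Psmb8 and Psmb9 lie above the band in the second panel, and H2-K1, H2-D1 and Psmb9 below it in the third.

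Averaged over both stimulations, 0 of 10 genes passed for si-Lnc-Dpf3 at an adjusted p under 0.05 in limma, where 2.33% of all genes rose and 2.04% fell. At an unadjusted p under 0.05 limma had 4 of 10, all lower (H2-K1, H2-D1, Tap2 and Psmb9), beside 7.6% of all genes lower at that level. All 10 estimates were below 0, with a median of -0.17 beside 0.01 over all genes. The estimate was -0.27 ± 0.12 for both H2-K1 (SE, limma adjusted p = 0.27) and H2-D1 (adjusted p = 0.25), with 95% intervals from -0.52 to -0.01 and from -0.53 to -0.02. B2m stood at -0.25 (interval -0.60 to 0.10), Psmb9 at -0.21 (-0.38 to -0.04) and Tap2 at -0.19 (-0.33 to -0.05). Scaling the libraries to equal totals brought 4 of 10 below an adjusted p of 0.05, namely H2-K1 (0.0042), H2-D1 (0.0028), B2m (0.020) and Psmb9 (0.030) in limma. That scaling also raised the calls over all 11041 genes, from 225 to 347 falling and from 257 to 503 rising. Over all alternatives the limma adjusted p ran from 0.0003 to 0.99 for H2-K1, from 0.00015 to 0.99 for H2-D1, from 0.00074 to 0.99 for B2m and from 0.026 to 0.99 for Psmb9. Without the unstimulated si-Lnc-Dpf3 library, the estimates of Psmb8 and Psmb9 in a single-factor model became 0.06 and 0.02.

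Markers of neutrophils, which marrow cultures can also hold, had a higher sum in both si-Lnc-Dpf3 libraries. The sum of 16 markers was 9375 and 9748 FPKM under si-NC, below the 13804 and 13936 FPKM under si-Lnc-Dpf3. Of the 15 tested, 7 rose with si-Lnc-Dpf3 and 0 fell (limma), beside 2.33% of all genes that rose and 2.04% that fell. The count that rose was 8 without the trend, and 0 without the filter and in the single-factor model. S100a9, S100a8 and Lcn2 were the most abundant of the 16 and were not among those 7. The part of neutrophils in the class I values was not tested. In bulk RNA, fewer cells of a type and less RNA per cell cannot be told apart. Dendritic cell markers were present, led by Ccl22, Cd74 and Fscn1, and 10 of them summed to between 6368 and 9937 FPKM. Cd74 and H2-Ab1 are in the class II list too. With si-Lnc-Dpf3, 3 of the 10 dendritic cell markers fell (Itgax, Cd83 and Cd86) and 0 rose, beside the 2.04% of all genes that fell. Of 9 macrophage markers tested 2 fell and 0 rose, beside the same 2.04%. The 10-gene macrophage sum, led by Adgre1, Cd68 and Csf1r, was 520.2 and 505 FPKM under si-NC against 438 and 441 FPKM under si-Lnc-Dpf3. Of 8 mast cell and basophil markers, led by Prss34, Mcpt8 and Cpa3, 2 fell and 0 rose, again beside 2.04%. Their sums were 727 and 690.0 against 618 and 638 FPKM. In each of these 3 lists 0 fell without the trend, without the filter and in the single-factor model. Lymphocyte markers summed to between 11.2 and 12.7 FPKM, with Ncr1 at 0 in 1 library and Klrb1c in 2, and erythroid and stromal markers to between 4.2 and 5.91 FPKM.

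The immunoproteasome share was compared between libraries as the percentage of FPKM that an immunosubunit takes of the pair it forms with its constitutive counterpart, a value that library scaling does not alter. Psmb8 took 70.3%, 73.0%, 67.8% and 71.6% of the Psmb8 and Psmb5 sum. Psmb9 took 55.7%, 59.8%, 53.6% and 58.3% of its sum with Psmb6. For both pairs the share was higher with CCR7L under each siRNA, and lower with si-Lnc-Dpf3 in each stimulation. Psmb10 took 49.8%, 46.8%, 44.6% and 47.1% of its sum with Psmb7, so its order differed. Over all 3 pairs the immunosubunits made up 60.5%, 62.6%, 57.3% and 61.5% of the catalytic FPKM. With 1 library in each group these shares carry no test.

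**Figure D3:**
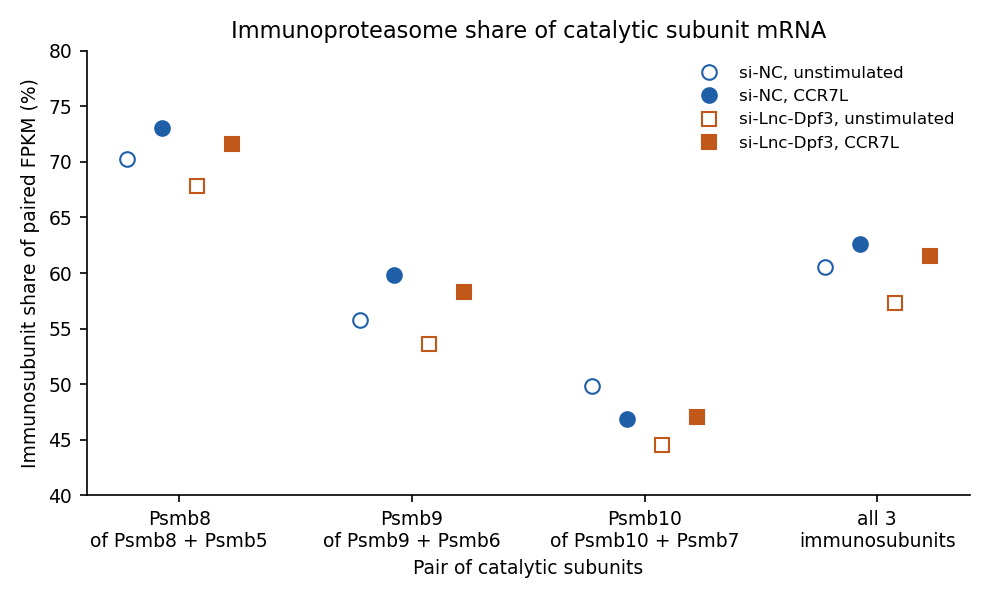
Share (%) of paired catalytic subunit FPKM taken by the immunosubunit, with 1 point per library for each pair and for the 3 pairs summed. The axis does not start at 0. Filled symbols (CCR7L) lie above open ones of the same siRNA for Psmb8 and Psmb9, and the open square (si-Lnc-Dpf3 unstimulated) is lowest in each column.

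The constitutive counterparts had small differences. Psmb5, Psmb6 and Psmb7 had average CCR7L estimates of 0.10, 0.08 and 0.11, and si-Lnc-Dpf3 estimates of -0.01, -0.10 and 0.02, and 0 of 3 passed for either factor (limma). Of 14 other core subunit and assembly genes, 1 rose with CCR7L and 0 fell, beside 2.93% of all genes that rose and 3.11% that fell. The gene that rose was Pomp, the assembly factor that matures both kinds of proteasome, by 0.27 ± 0.07 (SE, limma adjusted p = 0.044). Its levels were 202, 234, 176 and 221 FPKM, and the call was lost without the trend. Psme1 and Psme2 encode the 2 chains of the PA28 activator that is induced with the immunoproteasome by interferon gamma. Psme2 measured 608, 726, 499 and 660.2 FPKM, and its CCR7L estimate of 0.33 did not pass (limma adjusted p = 0.056). None of the 4 activator genes passed for either factor in the main limma fit. Psme2 was called as rising with CCR7L when 0.1 in place of 1 was added to FPKM, and with each of the 3 library scalings. It was not called with a filter at 5 FPKM, without the filter, without the trend or in the single-factor model. With equal totals and with scaling on genes at 100 FPKM or more, Psme2 was also called as falling with si-Lnc-Dpf3.

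Among 7 loading partners, 1 rose with CCR7L, beside 2.93% of all genes, and that was Tapbpl, which encodes the tapasin-related peptide editor TAPBPR. It measured 51.2, 64.6, 44.7 and 57.0 FPKM and rose by 0.34 ± 0.06 (SE, limma adjusted p = 0.0073), a call lost without the trend. The lectin chaperone genes Calr and Canx and the oxidoreductase gene Pdia3, whose products assist the heavy chain before and during loading, did not pass, with CCR7L estimates of 0.02, -0.03 and 0.06 and si-Lnc-Dpf3 estimates of 0.14, 0.13 and 0.05. Of 7 other peptidases, 0 passed for either factor in limma, and 7 of 7 were higher in unstimulated si-Lnc-Dpf3 than si-NC cells, beside 54.3% of all genes, with a median log2 ratio of 0.16. Of 10 cross-presentation genes, 1 rose with CCR7L, again beside 2.93% of all genes. A single call in so small a list cannot be set apart from that share. The gene was Rab43, which encodes a small GTPase, and it rose by 0.25 ± 0.06 (limma adjusted p = 0.045). That call was lost without the trend and with equal totals. The calls for Pomp, Tapbpl and Rab43 were also lost without the filter, in the single-factor model, and in that model with any 1 library left out.

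Non-classical class I chains had a lower median with si-Lnc-Dpf3 than the 10 processing genes, at -0.36 in unstimulated cells and -0.26 under CCR7L. Of 14 genes 13 were tested, and 7 fell and 0 rose with si-Lnc-Dpf3, beside 2.04% of all genes that fell. H2-M2 measured 138, 152, 84.8 and 110.4 FPKM, with both si-Lnc-Dpf3 libraries below both si-NC libraries, and its average change was -0.58 ± 0.07 (SE, limma adjusted p = 0.0030). H2-Q7 changed by -0.43 ± 0.08, H2-T22 by -0.38 ± 0.07 and H2-Q6 by -0.36 ± 0.07. H2-M3, which presents formylated peptides, changed by -0.35 ± 0.06, H2-Q4 by -0.35 ± 0.08 and Cd1d1, which presents lipids, by -0.28 ± 0.06. The Q and T region genes resemble each other in sequence, so their separate values are uncertain. With CCR7L 1 of the 13 rose, beside 2.93% of all genes, and that was Cd1d1, by 0.50 ± 0.06 (limma adjusted p = 0.00056). Of the 7 genes that fell with si-Lnc-Dpf3, 1 (H2-M2) was called without the trend. None was called without the filter, in the single-factor model, or in that model with any 1 of the 4 libraries left out, where Cd1d1 was not called for CCR7L either. The neutrophil marker sums given above moved with these libraries as well.

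Among the 14 regulators of class I transcription, Irf8 and Irf1 had the lowest si-Lnc-Dpf3 estimates. Nlrc5, the transactivator of class I genes, measured 25.5, 29.6, 25.0 and 27.0 FPKM, with a CCR7L estimate of 0.16 (interval 0.01 to 0.30, limma adjusted p = 0.29) and a si-Lnc-Dpf3 estimate of -0.08. Of 14 regulators 1 passed, the interferon regulatory factor gene Irf8, which fell with si-Lnc-Dpf3 (log2 estimate -0.29 ± 0.07, limma adjusted p = 0.040). Over all genes 2.04% fell with si-Lnc-Dpf3. The Irf8 call was lost without the trend, without the filter and in the single-factor model. Irf1, an activator of Psmb9 and Tap1, stood at 0.16 for CCR7L and -0.20 for si-Lnc-Dpf3 without passing. With median-ratio scaling, alone of the alternatives, it was called as falling with si-Lnc-Dpf3. Of 8 interferon receptor and kinase genes tested, 0 passed for either factor in limma.

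Most class II chains are encoded in the same complex, and the class II list's CCR7L estimates were larger. Of 12 genes 9 rose and 0 fell with CCR7L (limma), beside 2.93% of all genes that rose and 3.11% that fell. Ciita, the class II transactivator, rose by 1.08 ± 0.08 and H2-DMb2, a chain of the peptide exchange factor DM, by 0.98 ± 0.06. The class II chains H2-Ab1 and H2-Eb1 rose by 0.79 ± 0.08 and 0.77 ± 0.08. In the single-factor model 5 of the 12 were called, and with 1 library left out of it between 2 and 7, with Ciita and H2-DMb2 called each time, whereas 0 were called without the filter. With si-Lnc-Dpf3, 2 of the 12 fell, beside 2.04% of all genes. They were Ctss, a protease of the class II pathway, by -0.37 ± 0.09 (limma adjusted p = 0.048) and H2-DMb1 by -0.29 ± 0.07 (0.049). Both calls were lost without the trend, without the filter and in the single-factor model. The class II list had median CCR7L log2 ratios of 0.47 in si-NC and 0.69 in si-Lnc-Dpf3 cells, beside 0.04 and 0.18 for the 10 class I processing genes. In unstimulated cells their si-Lnc-Dpf3 medians were closer, at -0.27 and -0.25. The difference between the lists was not tested.

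**Figure D4:**
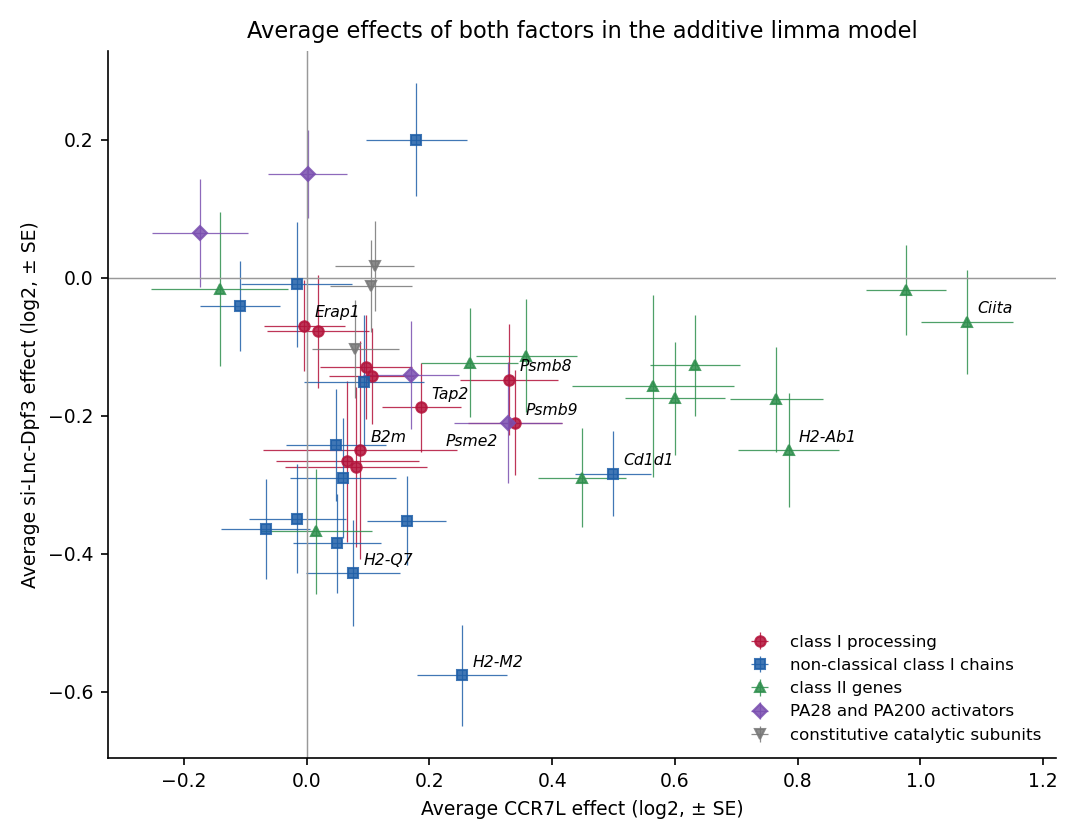
Average CCR7L effect (horizontal axis) and average si-Lnc-Dpf3 effect (vertical axis), both log2 with bars of 1 SE from the additive limma model, for genes of 5 lists. The class I processing genes lie below 0 on the vertical axis with Psmb8 and Psmb9 farthest right among them, the class II genes reach 1.08 on the horizontal axis, and H2-M2 is the lowest point at -0.58.

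Ratios between members differed between libraries, although unstimulated si-Lnc-Dpf3 was the lowest library for all members but Erap1. These ratios are of single libraries, and their differences were not tested. Psmb9 and Tap1 have adjoining start sites. Psmb9 to Tap1 FPKM was 1.21 and 1.12 in the unstimulated si-NC and si-Lnc-Dpf3 libraries and 1.38 and 1.35 in the stimulated ones. Psmb8 to Psmb9 FPKM stayed between 1.68 and 1.79 in the 4 libraries. Tap1 to Tap2 FPKM lay between 1.23 and 1.35, and B2m to the sum of H2-K1 and H2-D1 between 1.25 and 1.32. Over the mean pattern of the 10 genes, the 5 nearest of 6430 other genes (mean of 10 FPKM or more) were Pdrg1, Slc2a6, Prdx2, Cacnb3 and Akr1a1. Their Euclidean distances were between 0.025 and 0.027 on log2(FPKM + 1) centred over 4 libraries. Single members lay between 0.041 (Tap1) and 0.22 (Erap1) from that mean. The 5 genes were picked for nearness and the members were not, so their distances cannot be set against each other. With 4 libraries many genes can lie this near.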

How the data were processed

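Deposited FPKM values with 2 decimals were used, 1 column per library. Per the submitters' processing notes, Bowtie2, RSEM and the build GRCm38 were used, with no version or setting in the sources used here. Columns were assigned through the abbreviations in their names (nc or si, un or tr), and no column was left over.

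Values were analysed as log2(FPKM + 1), a scale that understates the change of low genes. Depth was estimated by matching FPKM values of short, singly annotated transcripts (length less 40 bases) to whole reads. The depth that made most values whole, 21100000 to 22000000 reads, left 51.1% to 61.1% of 92 to 100 values a library within 0.1 of whole numbers (20% for random values, before that choice), so reads were not recovered. The depth so estimated serves for counting intervals alone, and no count test was run.

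Average effects came from limma 3.58.1 (R 4.3.3): siRNA plus stimulation, mean-variance trend, Benjamini-Hochberg adjustment over 11041 genes at 0.05. The model has 1 residual degree of freedom and 9.63 prior ones. In simulated data the share of false calls varied widely between draws and was well above the nominal rate in some, so the adjusted p-values can be too small and calls near the threshold are uncertain. Replicate cultures were not measured, so a culture difference that pairs of libraries have in common enters the effect itself. A fold of 1.2 was used to count genes in single comparisons. The members and lists were chosen with earlier results of these data known. Named genes were all members, pathway list genes past the test (up to 4 a list for each factor, by size), Nlrc5, the constitutive subunits, up to 3 markers of a cell type by mean FPKM and the 5 nearest patterns; the other genes named, with values, were chosen after their values were seen. Alternatives changed the pseudocount, filter, scaling, trend, model, length and GC trend and fold.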

Additional observations from a re-analysis of the deposited data

Results flagged for a closer look

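The CCR7L log2 ratio of 3 genes had opposite signs under the 2 siRNAs, each beyond its counting interval. With si-NC it was -0.04 for H2-K1, -0.02 for H2-D1 and -0.09 for Tapbp, and with si-Lnc-Dpf3 it was 0.18, 0.18 and 0.13. For Tapbp the si-Lnc-Dpf3 log2 ratio also had opposite signs, 0.03 under CCR7L and -0.19 in unstimulated cells. These differences were not tested, since each group is 1 library. The smallest ratios lay little beyond their counting intervals. Tapbp had 0.035 against 0.027 under CCR7L, and H2-D1 had -0.018 against 0.015 with si-NC. The signs are those of FPKM as deposited. Each of the 3 library scalings multiplies si-Lnc-Dpf3 with CCR7L by less than si-NC with CCR7L (0.980 against 0.992 with equal totals). The Tapbp ratio of 0.035 then falls inside its counting interval. Median-ratio scaling (1.014 against 1.006 for si-NC with and without CCR7L) brings the H2-D1 ratio of -0.018 inside its interval too. Whether the other ratios stay beyond their intervals once the libraries are rescaled was not tested. All of these ratios that involve the unstimulated si-Lnc-Dpf3 library stand beside its lower values for abundant genes, whose median log2 ratio to si-NC was -0.07 over 811 genes at 100 FPKM or more; their part was not tested.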

How the results depend on the processing

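Median ratios of the 10 genes kept their direction under each alternative run. With equal totals, the length and GC trend removed, and scaling on genes at 100 FPKM or more (chosen after seeing the data), the CCR7L median in si-Lnc-Dpf3 cells became 0.10, 0.11 and 0.084 from 0.18, and the unstimulated si-Lnc-Dpf3 median -0.20, -0.20 and -0.20 from -0.25. Members past a fold of 1.1 numbered 3, 7, 4 and 9 for CCR7L in si-NC, CCR7L in si-Lnc-Dpf3, si-Lnc-Dpf3 under CCR7L and si-Lnc-Dpf3 unstimulated. At 1.5-fold there were 0 in each, against 0, 2, 0 and 4 at 1.2-fold. Shares of all genes past 1.1-fold and 1.5-fold were not counted, so these counts cannot be read against them. In unstimulated cells 66.3% of genes at 100 FPKM or more were lower with si-Lnc-Dpf3 by any size. Members called for CCR7L went from 2 to 0 without a filter, without the trend and in the single-factor model. Members called for si-Lnc-Dpf3 went from 0 to 4 with equal totals and with scaling on genes at 100 FPKM or more. Over all genes those called as falling went from 225 to 347 and 340 with these scalings. The cause of these changes was not tested. Libraries were left out only in the single-factor model without rescaling, where 0 members were called for either factor with all 4 libraries. Those runs therefore cannot show whether a call depends on 1 library.

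The CCR7L estimate reversed for Tapbp with equal totals (-0.022) and with scaling on abundant genes (-0.038) and for Erap1 with median-ratio scaling (0.014). In single-factor models with 1 library left out, CCR7L estimates ran from -0.059 to 0.23 for B2m, -0.12 to 0.25 for H2-K1, -0.11 to 0.27 for H2-D1, -0.077 to 0.11 for Tapbp, -0.0044 to 0.22 for Tap1, -0.034 to 0.23 for Psmb10 and -0.070 to 0.062 for Erap1. Leaving out si-NC with CCR7L also gave -0.018, -0.012 and -0.0081 for B2m, H2-K1 and H2-D1. The si-Lnc-Dpf3 estimates ran from -0.36 to 0.062 for Psmb8 and -0.44 to 0.018 for Psmb9. Leaving out a library leaves 1 sample on a side, which is assumed to vary like the rest.

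Over all genes in limma, 324 rose and 343 fell with CCR7L, against 297 and 576 with scaling on genes at 100 FPKM or more, 238 called in the single-factor model, between 89 and 170 with a library left out, and 0 without a filter (2036 at an unadjusted p under 0.05). For si-Lnc-Dpf3, 482 were called, against 850 with equal totals, 803 by median ratio, 778 with scaling on abundant genes, 77 without the trend, 1 in the single-factor model, 0 with any library left out (520 to 1445 unadjusted) and 0 without a filter (1939 unadjusted). No paired analysis was possible because the labels give no replicate numbers and each group holds 1 library.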
